A study of Mus musculus with 14 samples.

Results

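The syndecans and glypicans of the mouse superior mesenteric artery are described here from RNA-seq counts of 14 mice. The members are the rows of the count table named Sdc1, Sdc2, Sdc3, Sdc4, Gpc1, Gpc3, Gpc4 and Gpc6, which are 8 of its 46095 gene symbols. They were chosen from the measured levels of these same mice, so what follows describes them, and a call of a member is not independent support for it. Gpc2 and Gpc5, the other glypican genes, were not among the 8 and are given once below for completeness.

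All mice were of the C57BL/6 strain and 8 weeks old, and each sample was the superior mesenteric artery of 1 mouse as labelled. The groups were Normal Drp1 +/+ with 3 mice and Normal Drp1 flox/+ with 4 mice, and Ischemia Drp1 +/+ with 3 mice and Ischemia Drp1 flox/+ with 4 mice. Mice labelled Drp1 +/+ are called WT and mice labelled Drp1 flox/+ are called KO, after the names used in the study. The study describes the KO mice as carriers of a frameshift in a single copy of Drp1 in the whole body, and no Cre driver is named in the labels. Ischemia was produced by bleeding the animals through a catheter in the femoral artery. The sample descriptions of the ischemic mice give 2 h. The text of the study names a longer time. No label names a litter or a surgery day, so mice that shared either cannot be recognized. The tests treat the mice as independent and weigh differences against the spread between these mice only.

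Syndecans and glypicans are the cell-surface proteoglycans that carry heparan sulfate. Syndecans cross the membrane with a short cytoplasmic tail, and glypicans are held on the outer face by a lipid anchor. Their sugar chains bind growth factors, chemokines, lipoprotein lipase and matrix proteins, and in the vessel wall they take part in the endothelial glycocalyx and in the attachment of smooth muscle cells to matrix. The core proteins can be cut from the surface, and the chains can be cut by heparanase, so a transcript level is not a level of proteoglycan at the surface.

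Levels are given as counts scaled to the size of the library (CPM), with TMM factors, and in comparisons between genes as CPM per kilobase of exon. Total counts ran from 25612646 to 40255851 per mouse. Before TMM factors, a floor of 3 counts corresponds to between 0.0745 and 0.117 CPM. A gene is said to be called, to have risen or to have fallen where edgeR's quasi-likelihood test gave a Benjamini-Hochberg FDR under 0.05 over the 17693 genes tested together with a fold change over 1.5. Fold changes are log2 values with their standard error (SE). All 8 members passed the filter on low counts.

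The targeted gene, Dnm1l, which encodes Drp1, stood at 63.8, 65.7 and 90.9 CPM in normal WT mice and at 54.8, 60.8, 57.9 and 62.2 CPM in normal KO mice. Every normal KO mouse was below every normal WT mouse, as for 1.9% of all genes. The difference of -0.32 (SE 0.16) had an FDR of 0.974 in edgeR. After ischemia Dnm1l ran from 63.1 to 81.0 CPM in WT mice and from 60.0 to 76.0 CPM in KO mice, and these ranges overlapped. Counts per gene do not show a frameshift in an exon, so this checks the genotype labels only in part.

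All 6 smooth muscle markers had counts in every mouse, with a summed level between 7316 and 37356 CPM. This sum was the highest of the marker lists in every mouse but normal WT replicate 2, where white adipocyte markers summed to 9024 CPM against 7316 CPM for smooth muscle. One of the 6, Tagln, had only 0.67 to 5.78 CPM, while Acta2 had 3357 CPM or more. Tagln is known as an abundant transcript of smooth muscle, so a count near 0 in this table may not show that a transcript was rare. This also holds for Gpc2 and Gpc5 below. The 5 brown adipocyte markers summed to between 176 and 6561 CPM, with Ucp1 between 40.2 and 4072 CPM, and the 6 fibroblast markers to between 1104 and 7147 CPM. Endothelial markers summed to between 537 and 1392 CPM, white adipocyte markers to between 410.4 and 9024 CPM and macrophage markers to between 29.9 and 339 CPM. The lists for 9 other cell types had medians between 0.37 CPM for T cells and 135 CPM for erythroid cells, and Th and Pnlip were at 0 in every mouse. Xist was above 100 CPM in 6 mice, in which Ddx3y of the Y chromosome had at most 0.03 CPM. The other 8 mice had 48.9 to 85.8 CPM of Ddx3y, so both sexes were present although the labels give no sex. Mice with high Xist were 2 of 3 normal WT and 2 of 4 normal KO mice. After ischemia they were 1 of 3 WT and 1 of 4 KO mice, so the sexes were not balanced between normal and ischemic mice. In bulk tissue, fewer cells of a type and less RNA per cell cannot be told apart.

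Sdc4 is the member that the results turn on, since it was the single member called. The RefSeq promoter table, on GRCm38.p6, held 5 of the 8 members. The windows of Sdc4 and Sdc1 are shown, because they are syndecans with a TATAA match and differ in their calls. Each has 250 bases before the start site and 50 after it, 5′ to 3′ on the strand of the gene, at chr2:164443139-164443438 on the minus strand for Sdc4 and chr12:8771146-8771445 on the plus strand for Sdc1. Capitals mark matches on either strand to TATAA and to GGG and CC with 5 bases of any kind between them, a pattern of the NF-kB type.
Sdc4: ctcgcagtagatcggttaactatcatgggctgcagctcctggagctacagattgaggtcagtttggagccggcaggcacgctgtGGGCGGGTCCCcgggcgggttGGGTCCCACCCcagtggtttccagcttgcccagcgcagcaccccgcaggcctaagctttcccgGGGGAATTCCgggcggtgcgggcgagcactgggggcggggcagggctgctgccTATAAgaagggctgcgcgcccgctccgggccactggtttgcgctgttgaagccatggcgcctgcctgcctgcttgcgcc
Sdc1: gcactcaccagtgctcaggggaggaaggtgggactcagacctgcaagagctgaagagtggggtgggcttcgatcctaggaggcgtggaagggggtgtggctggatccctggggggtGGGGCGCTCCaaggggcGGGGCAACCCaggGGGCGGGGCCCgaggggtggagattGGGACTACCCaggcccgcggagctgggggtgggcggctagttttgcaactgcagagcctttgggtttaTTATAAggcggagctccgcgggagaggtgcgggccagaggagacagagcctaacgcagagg
The Sdc4 window held 5 matches to the NF-kB type pattern, some of them overlapping ones of opposite strands, with the nearest 82 bases before the start site. Its TATAA lay 29 bases before the start. The Sdc1 window held 7 matches to that pattern, also with overlaps, and its TATAA matches lay 11 and 10 bases before the start. The NF-kB type pattern was found in 50.8% of all 32851 promoter windows and TATAA in 24.9%, so both patterns are common. GGGCGG, a pattern of the Sp1 type, occurred 4 times for Sdc4 and 3 times for Sdc1, against 35.7% of all windows with at least 1, and some of these matches overlapped the NF-kB type pattern. TGANTCA of the AP-1 type and ACGTG, the core of a hypoxia response element, were in neither window and in 7.81% and 19.6% of all windows. A match is a description of letters and not a binding site.

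The order of the levels per kilobase was led by Sdc4. Its median over the 14 mice was 105.6 CPM per kilobase, followed by Sdc2 at 35.9, Gpc6 at 31.7, Gpc4 at 20.8, Gpc3 at 16.3, Sdc1 at 7.34 and Gpc1 at 6.69. Sdc3 came last of the members at 0.09 CPM per kilobase. Sdc4 was above Sdc2 in 14 of 14 mice, and Gpc1 was above Gpc2 in 14 of 14. The other neighbours were less separate: Sdc2 was above Gpc6 in 10 mice, Gpc6 above Gpc4 in 12, Gpc4 above Gpc3 in 10 and Gpc3 above Sdc1 in 13, and Sdc1 was above Gpc1 in 9. Divided by the length of the longest transcript, Gpc6 had a median of 49.2 CPM per kilobase and its place above Sdc2 or below it depends on the length chosen. Gpc2, which is known mainly from the developing nervous system, ran from 0 to 2.89 CPM. Of its 4274 exon bases, 4227 lie in the overlapping gene Gm43720 on the same strand. How reads in shared bases were counted is not stated, so its low level may not show that the transcript was rare. Gpc5 had 0 counts in all 14 mice, which is under the floor of 3 counts and does not show that the transcript was absent.

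The plot of the 8 genes by mouse shows how far the groups overlap.

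**Figure D1:**
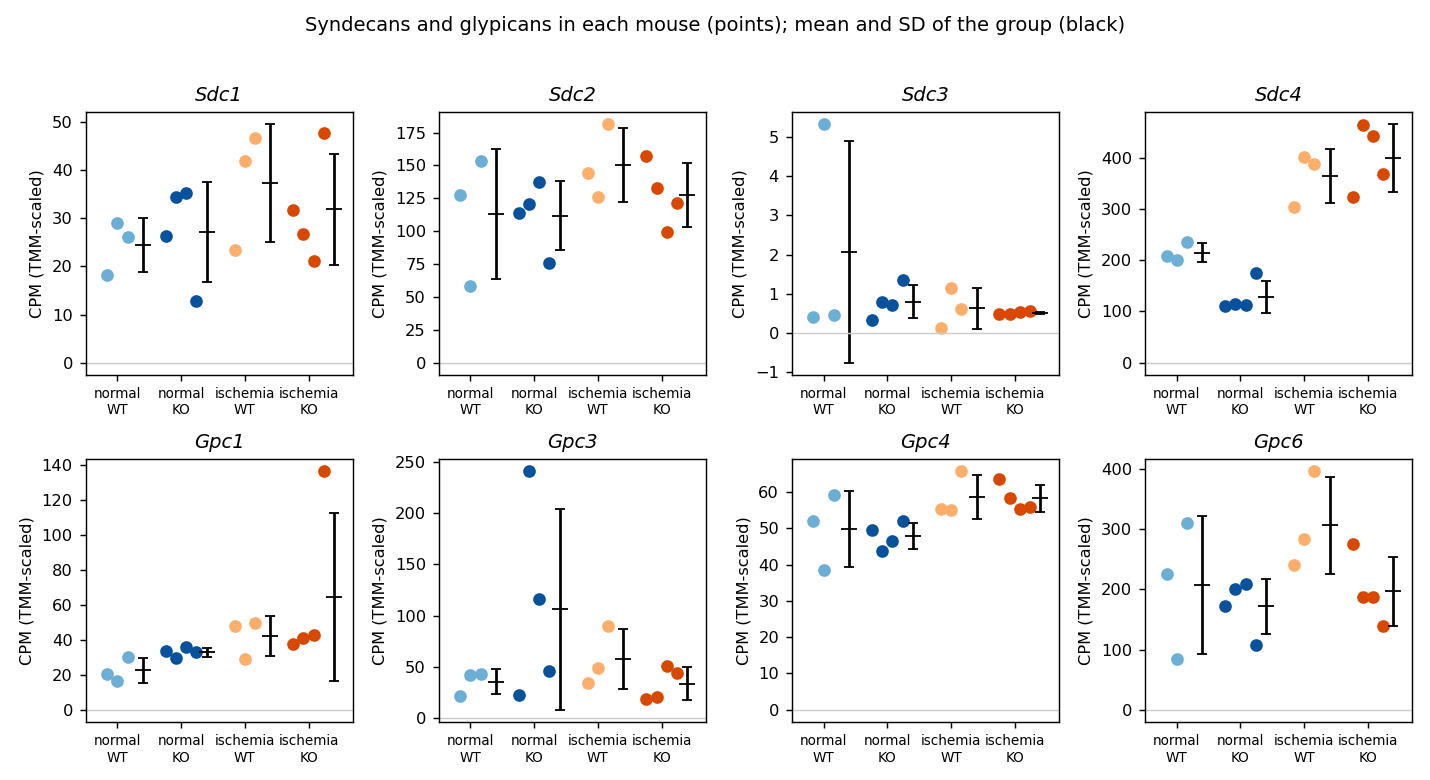
CPM (TMM-scaled, linear axes) of each of the 8 genes in every mouse of the 4 groups, with replicates from left to right as points and the mean ± SD of the group in black (n = 3 for WT and n = 4 for KO). Only in the Sdc4 panel do all 7 ischemic mice, between 303 and 464 CPM, sit above all 7 normal mice, between 111 and 235 CPM, and the SD bar of Sdc3 in normal WT mice runs below 0 because 1 mouse had 5.33 CPM.

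Sdc4 encodes syndecan-4, which joins integrins in focal adhesions and binds fibronectin and protein kinase C alpha. The gene lies on chromosome 2 (164424247 to 164443887, minus strand, GRCm38, GENCODE). In normal WT mice it stood at 208, 200.3 and 235 CPM, and in normal KO mice at 111, 115, 113 and 174 CPM. After ischemia it stood at 303, 401 and 388 CPM in WT mice and at 322, 464, 443 and 369 CPM in KO mice. The normal KO mice were lowest, the normal WT mice came next, and the ischemic mice of both genotypes were high and overlapped each other.

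In KO mice Sdc4 rose 3.11-fold after ischemia, from 128 ± 30.7 (SD, n = 4) to 399 ± 65.7 CPM (SD, n = 4), a log2 fold change of 1.64 (SE 0.20, FDR = 0.0063 in edgeR). It was 1 of 52 genes called in this comparison, which are 0.294% of the genes tested. In WT mice the means were 214 ± 18.6 CPM (SD, n = 3) and 364 ± 53.3 CPM (SD, n = 3), and the log2 fold change of 0.76 (SE 0.23) was not called (FDR = 0.513 in edgeR). Only 2 genes, or 0.0113%, were called in WT mice, and 0 of the members were. Averaged over the genotypes, Sdc4 rose by 1.20 on the log2 scale (SE 0.15, FDR = 0.00452 in edgeR), as 1 of 164 genes called, or 0.927%.

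The levels of single mice were separate in more comparisons than the call was made in. Every ischemic KO mouse was above every normal KO mouse for Sdc4, Gpc1 and Gpc4, as for 5.49% of all genes. Every ischemic WT mouse was above every normal WT mouse for Sdc4, as for 6.63% of all genes. All 7 ischemic mice were above all 7 normal ones for Sdc4, as for 0.576% of all genes. These separations are among the measurements behind the choice of Sdc4 and are given as a description.

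Between genotypes, Sdc4 was lower in normal KO than in normal WT mice by -0.74 on the log2 scale (SE 0.21), with every KO mouse below every WT mouse, as for 1.9% of all genes. This was not called (FDR = 0.866 in edgeR). After ischemia the difference of KO from WT mice was 0.13 (SE 0.21, FDR = 0.88 in edgeR). The difference between the ischemia effects of the genotypes was 0.87 (SE 0.30, FDR = 0.946 in edgeR), so a larger effect in KO mice was not shown. The share of genes called was 0% between KO and WT mice in normal conditions, 0% between them after ischemia, 0% for the genotypes averaged over conditions and 0% for the interaction, and therefore 0 members were called in each. At an unadjusted p under 0.05, edgeR gave 929, 1146, 1375 and 765 genes there, and DESeq2 called 41, 18, 88 and 11 genes, or 0.232%, 0.102%, 0.497% and 0.0622%, of which 0 were members.

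The call of Sdc4 did not rest on 1 mouse. When 1 of the 14 mice was omitted at a time, the effect in KO mice ran from 1.58 to 1.82 on the log2 scale and stayed called in 14 of 14 fits, with an FDR between 0.00391 and 0.0427 in edgeR. The averaged effect ran from 1.16 to 1.29 and was also called in 14 of 14. These fits share the mice from whose levels Sdc4 was chosen, so they are not independent support for its call. Without normal WT replicate 2, the mouse rich in adipocyte markers, the effect in WT mice was 0.70 (SE 0.26) and the difference between normal KO and WT mice was -0.79 (SE 0.23), neither of them called.

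Sums of several marker lists differed between the normal and ischemic KO mice, in which Sdc4 was called. The 3 erythroid markers summed to between 283 and 481 CPM in normal KO mice and to between 62.5 and 151 CPM in ischemic KO mice, without overlap, and to between 88.0 and 194 CPM in normal and between 3.98 and 89.8 CPM in ischemic WT mice. The median smooth muscle sum was 15311 CPM in normal KO and 24826 CPM in ischemic KO mice, and that of the macrophage markers was 255 and 115 CPM, both with overlap between the mice. Over the 14 mice Pearson's r of Sdc4 was -0.61 with the erythroid sum, -0.46 with the macrophage sum, 0.43 with the smooth muscle sum, -0.30 with the white adipocyte sum, -0.20 with the endothelial sum, -0.06 with the fibroblast sum and -0.02 with the brown adipocyte sum. With 5 of these sums as a covariate in turn, in fits added after seeing the data, the effect of ischemia on Sdc4 in KO mice was 1.70 (SE 0.26) for erythroid, 1.78 (SE 0.23) for macrophage, 1.74 (SE 0.20) for smooth muscle, 1.63 (SE 0.21) for fibroblast and 1.63 (SE 0.17) for brown adipocyte markers. It was called in each of these 5 fits. The erythroid sums did not overlap between normal and ischemic KO mice, so that fit cannot tell the sum and ischemia apart. The white adipocyte and endothelial sums were not used as covariates. The part of tissue makeup in the values of Sdc4 was not tested.

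Across all 8 members the median log2 fold change after ischemia was 0.59 in WT mice, with 7 of 8 above 0, and 0.21 in KO mice, with 6 of 8 above 0. Several of the values in WT mice rest on normal WT replicate 2, as given below. The medians over all 17693 genes were -0.01 and -0.05. Between KO and WT mice the median of the members was -0.04 in normal conditions and -0.23 after ischemia, beside -0.02 and -0.03 over all genes. The comparisons share their groups, so these medians are not independent of each other.

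**Figure D2:**
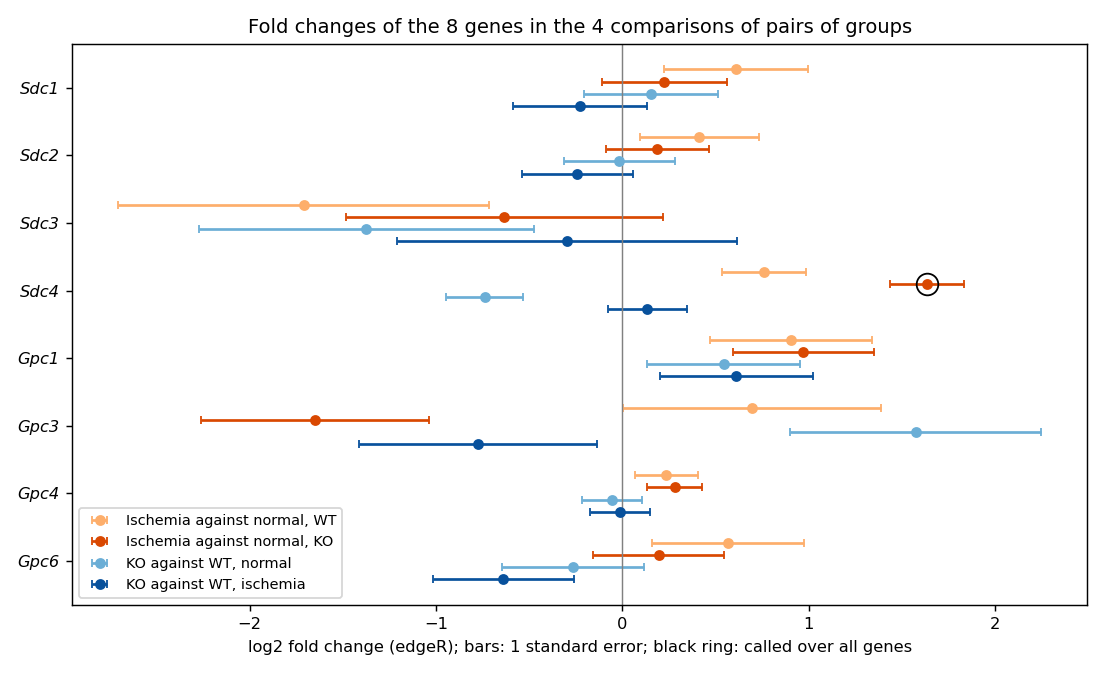
Log2 fold change (edgeR, x axis) of each of the 8 genes (y axis) in the 4 comparisons of pairs of groups, with bars of 1 SE and a black ring around a called value. The single ring is on Sdc4 in KO mice at 1.64, and the widest bars belong to Sdc3, whose counts were between 4 and 150 per mouse.

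Sdc2 encodes syndecan-2, the syndecan typical of mesenchymal cells. It stood at 127, 58.4 and 154 CPM in normal WT mice and at 114, 121, 137 and 75.5 CPM in normal KO mice. After ischemia it stood at 144, 126 and 181 CPM in WT and at 157, 133, 99.2 and 121 CPM in KO mice. The lowest value came from normal WT replicate 2, and all groups overlapped. The ischemia effect was 0.41 (SE 0.32) in WT and 0.19 (SE 0.28) in KO mice, with FDRs of 0.637 and 0.844 in edgeR. Without normal WT replicate 2 the effect in WT mice was 0.08 (SE 0.26).

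Sdc1 encodes syndecan-1, best known from epithelia and plasma cells and as a shed marker of the glycocalyx. Its levels were 18.3, 29.1 and 26.0 CPM in normal WT mice and 26.3, 34.4, 35.2 and 12.9 CPM in normal KO mice. After ischemia they were 23.4, 41.9 and 46.7 CPM in WT and 31.8, 26.8, 21.1 and 47.8 CPM in KO mice. The ranges of the 4 groups overlapped, and the effects of ischemia were 0.61 (SE 0.39) in WT and 0.23 (SE 0.33) in KO mice, with FDRs of 0.572 and 0.845 in edgeR. The sign of the value in KO mice depended on single mice, being -0.04 without ischemic KO replicate 4 and -0.0062 without normal KO replicate 4.

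Sdc3 encodes syndecan-3, which is best known from neural tissue and muscle satellite cells. It had few counts, with 0.41, 5.33 and 0.45 CPM in normal WT mice and 0.34, 0.79, 0.70 and 1.35 CPM in normal KO mice. After ischemia it had 0.12, 1.16 and 0.61 CPM in WT and 0.48, 0.49, 0.53 and 0.55 CPM in KO mice. Normal WT replicate 2 alone had 150 counts, and it is the mouse with the lowest smooth muscle sum and the highest brown adipocyte sum of the 14. Without that mouse the log2 fold change between normal KO and WT mice went from -1.38 to 0.86, and that of ischemia in WT mice from -1.71 to 0.51. With the smooth muscle sum as a covariate the effects of ischemia on Sdc3 were 0.53 in WT and 0.77 in KO mice, above 0 where the fit without it gave values below 0. None of these values was called. On the opposite strand, 1920 exon bases of Sdc3 overlap the antisense gene Gm26716, and whether the counting used strand is not stated.

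Within the syndecans the shares moved with Sdc4. Per kilobase, Sdc4 made up 69.0 ± 5.96% (SD, n = 3) of the syndecan sum in normal WT mice and 56.2 ± 11.5% (SD, n = 4) in normal KO mice. After ischemia it made up 73.0 ± 3.48% (SD, n = 3) in WT and 77.5 ± 5.76% (SD, n = 4) in KO mice. The syndecan sum was 123 ± 19.6 CPM per kilobase in normal WT and 89.4 ± 4.95 in normal KO mice, and 195 ± 26.2 and 201 ± 20.5 after ischemia. The lowest ischemic mouse, at 166, was above the highest normal mouse, at 143. Of all single genes, 0.576% separated the mice in this way. Sdc4 was among them, and Sdc1, Sdc2 and Sdc3 were not. Sdc4 made up most of the sum, so this separation is not a result apart from that of Sdc4.

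**Figure D3:**
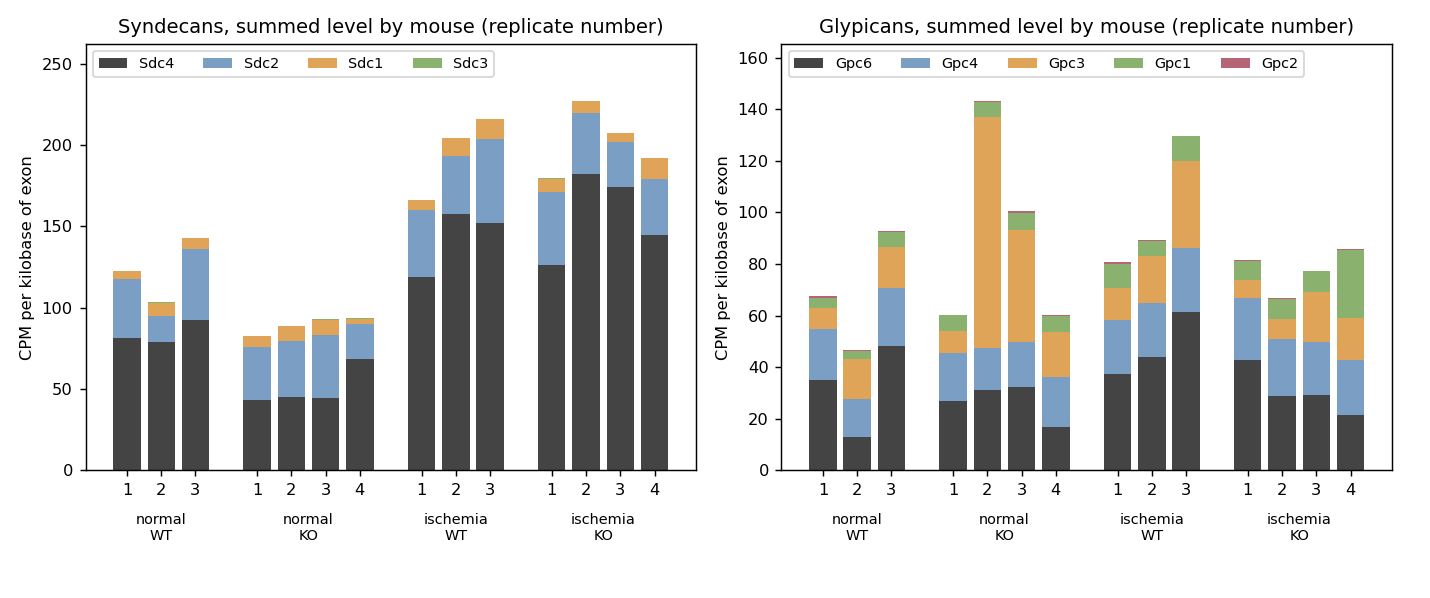
Level per kilobase of exon (CPM per kilobase, y axis from 0) of each syndecan and glypican stacked for each mouse (x axis, replicate number within the group). The syndecan columns of the ischemic mice reach 166 to 227 against 82.7 to 143 in normal mice, mostly through Sdc4, while the glypican columns overlap between the groups and differ in which gene is largest.

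The glypican sums did not separate in this way. They were 68.9 ± 23.1 CPM per kilobase (SD, n = 3) in normal WT and 91.1 ± 39.5 (SD, n = 4) in normal KO mice. After ischemia they were 99.9 ± 26.2 (SD, n = 3) in WT and 77.9 ± 8.11 (SD, n = 4) in KO mice. Gpc6 had the largest mean share in normal WT mice, at 44.1%, and after ischemia, at 47.7% and 39.7%. In normal KO mice the mean shares were 36.9 ± 20.8% for Gpc3 and 31.6 ± 9.66% for Gpc6 (SD, n = 4), and Gpc3 was the largest glypican in 2 of the 4 mice. Divided by the length of the longest transcript the mean shares were 35.4% for Gpc3 and 38.3% for Gpc6, so their order depends on the length chosen.

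Gpc1 encodes glypican-1, a coreceptor for fibroblast growth factors that is also found on endothelium. Its gene is on chromosome 1 (92831645 to 92860779, plus strand, GRCm38). It stood at 20.6, 16.6 and 30.3 CPM in normal WT mice and at 33.3, 29.3, 35.7 and 32.8 CPM in normal KO mice. After ischemia it stood at 47.7, 28.8 and 49.9 CPM in WT and at 37.5, 41.0, 42.5 and 136 CPM in KO mice. Ischemic KO replicate 4 stood far above every other mouse. The effect of ischemia was 0.91 (SE 0.44) in WT and 0.97 (SE 0.38) in KO mice, with FDRs of 0.528 and 0.292 in edgeR, and without that replicate the value in KO mice was 0.30. Averaged over the genotypes the effect was 0.94 (SE 0.29, FDR = 0.133 in edgeR), whereas DESeq2 gave 0.93 with an FDR of 0.0358 and called it. Without ischemic KO replicate 4 the averaged effect for Gpc1 was 0.60 (SE 0.17, FDR = 0.14 in edgeR), and DESeq2 was not run without that mouse. Of its exon bases, 977 overlap Ankmy1 on the opposite strand, which had a median of 0.24 CPM.

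The genes most like Gpc1 over the 14 mice, by Pearson r of log2 CPM, were Atp2a2 at 0.89, Atp5g1 at 0.89 and Hrc at 0.88. Atp2a2 and Hrc encode proteins of the sarcoplasmic reticulum, and Hrc ran from 5.18 CPM to 158 CPM in ischemic KO replicate 4. Without that mouse the r values were 0.73, 0.69 and 0.64. The part of striated muscle RNA in this mouse was not tested.

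Gpc3 encodes glypican-3, an inhibitor of Hedgehog signalling whose loss in humans gives an overgrowth syndrome. It is X-linked and lies 107 kb from Gpc4 (Gpc3 at 52272426 to 52613950 and Gpc4 at 52053021 to 52165252 on chromosome X, both on the minus strand, GRCm38). It stood at 21.7, 42.2 and 43.2 CPM in normal WT mice and at 22.4, 241, 116 and 46.2 CPM in normal KO mice. After ischemia it stood at 34.1, 49.5 and 90.2 CPM in WT and at 19.2, 20.6, 51.3 and 44.3 CPM in KO mice. Replicates 2 and 3 of the normal KO mice were the highest of all 14, and all 4 groups overlapped. The difference between normal KO and WT mice was 1.57 (SE 0.68), and the effect of ischemia was -1.65 (SE 0.61) in KO and 0.70 (SE 0.69) in WT mice. The difference between these effects was -2.35 (SE 0.92), and none of the 4 values was called, with FDRs in edgeR of 0.934, 0.271, 0.717 and 0.946. Without normal KO replicate 2 the difference in normal mice was 0.79 (SE 0.58), the effect in KO mice -0.86 (SE 0.53) and the difference between the effects -1.56 (SE 0.79). Without ischemic WT replicate 3 the effect in WT mice was 0.23 (SE 0.76).

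Sums of several marker lists, among them fibroblast, macrophage and erythroid markers, were high in the normal KO mice with the most Gpc3. The 6 fibroblast markers summed to 7147 and 4505 CPM in the normal KO mice with 241 and 116 CPM of Gpc3, and to 1362 and 1104 CPM in the other mice of that group. They ranged from 1205 to 3016 CPM in normal WT, from 1203 to 6390 CPM in ischemic WT and from 1532 to 2258 CPM in ischemic KO mice, and every one of the 6 had counts in every mouse. The order was not the same throughout, since normal WT replicate 1 had the fifth highest fibroblast sum, 3016 CPM, and 21.7 CPM of Gpc3. The 5 macrophage markers summed to 339 and 227 CPM in the same pair of normal KO mice. In the other mice of that group they summed to 103 and 282 CPM. For the 3 erythroid markers the sums were 361 and 481 CPM in the pair and 348 and 283 CPM in the others. Pearson's r of Gpc3 over the 14 mice was 0.70 with the fibroblast, 0.56 with the macrophage and 0.26 with the erythroid sum. These are on log2 scales and from the same libraries. Fits with these sums as a covariate were added after seeing the data. The difference between the ischemia effects was -0.88 (SE 0.74) with the fibroblast sum and -1.78 (SE 0.77) with the macrophage sum. Over all 27 fits it ran from -2.67 to -0.88, with -2.35 in the reported one. The difference between normal KO and WT mice was 0.38 (SE 0.67) with the macrophage sum. Over all 28 fits it ran from 0.38 to 1.91, with 1.57 in the reported one. None of these values was called. The part of any cell type in the values of Gpc3 was not tested. The genes most like Gpc3 were Abca8a at an r of 0.97, Igsf10 at 0.96 and Gdf10 at 0.96, and Gdf10, a secreted factor of the TGF-beta family, ran from 31.6 to 529 CPM with its highest level in the mouse with the most Gpc3.

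**Figure D4:**
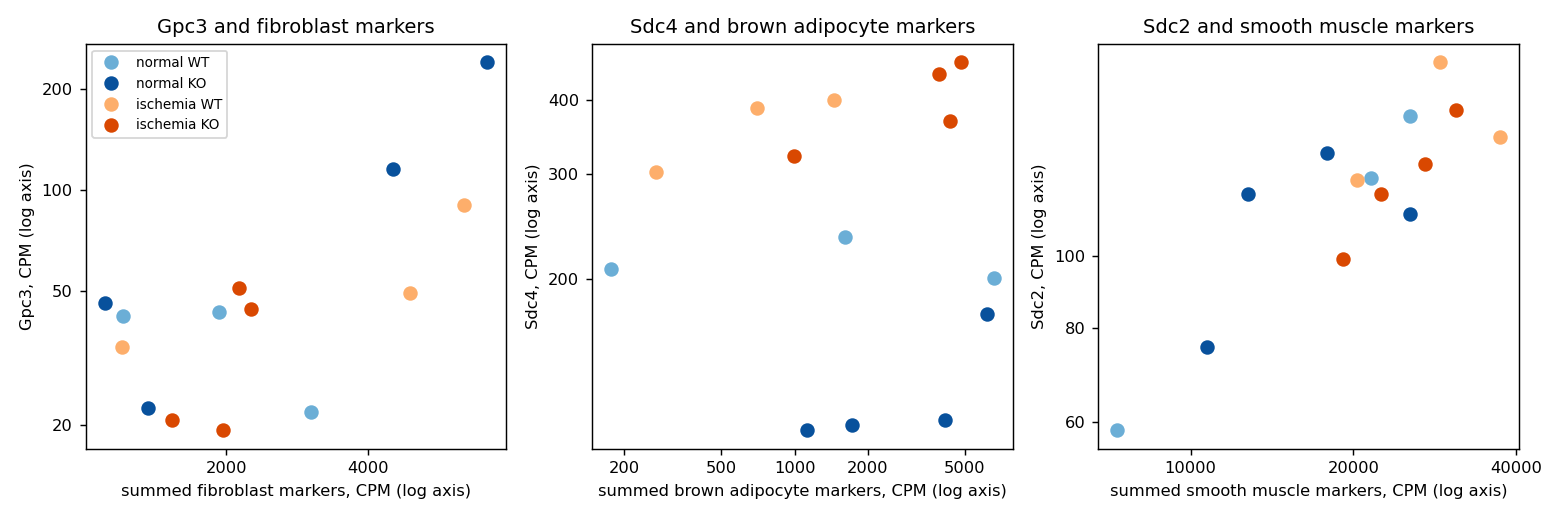
Level of Gpc3, Sdc4 and Sdc2 (CPM, y axes, log scale) in each of the 14 mice against the summed CPM of fibroblast, brown adipocyte and smooth muscle markers (x axes, log scale), colored by group. Gpc3 is highest at 241 CPM in the mouse with the highest fibroblast sum of 7147 CPM, Sdc4 separates ischemic from normal mice at low and at high brown adipocyte sums, and Sdc2 is lowest at 58.4 CPM in the mouse with the lowest smooth muscle sum.

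Gpc4 encodes glypican-4, which takes part in Wnt signalling and is released by astrocytes and adipose tissue. It stood at 52.0, 38.4 and 59.1 CPM in normal WT mice and at 49.5, 43.8, 46.4 and 52.0 CPM in normal KO mice. After ischemia it stood at 55.3, 55.1 and 65.7 CPM in WT and at 63.5, 58.2, 55.2 and 56.0 CPM in KO mice. Every ischemic KO mouse was above every normal KO mouse, but by little. The averaged effect of ischemia was 0.26 (SE 0.11), which is under the fold change limit and had an FDR of 0.253 in edgeR. From the lowest to the highest mouse Gpc4 spanned 1.71-fold, the narrowest span of the 8 genes, next to 3.10-fold for Sdc2 and up to 43.8-fold for Sdc3.

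Gpc6 encodes glypican-6, a relative of Gpc4 found in mesenchymal tissue. Its gene is on chromosome 14 (116925315 to 117976544, plus strand, GRCm38), 400 kb from Gpc5, which had no counts. It stood at 226, 83.8 and 309.8 CPM in normal WT mice and at 173, 199.7, 208 and 108 CPM in normal KO mice. After ischemia it stood at 240.0, 283 and 396 CPM in WT and at 276, 186, 187 and 138 CPM in KO mice. The lowest value again came from normal WT replicate 2. The effect of ischemia was 0.57 (SE 0.41) in WT and 0.19 (SE 0.35) in KO mice, and KO mice were at -0.64 (SE 0.38) against WT mice after ischemia, with FDRs of 0.614, 0.881 and 0.717 in edgeR. The value in KO mice was -0.01 without ischemic KO replicate 1. Without normal WT replicate 2 the effect of ischemia in WT mice was 0.17 (SE 0.33) for Gpc6 and 0.06 (SE 0.15) for Gpc4, beside 0.24 (SE 0.17) for Gpc4 with it.

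Among the members, Sdc2 and Gpc6 were the most alike over the 14 mice, with a Pearson r of 0.91 of log2 CPM. With the smooth muscle sum the r values were 0.86 for Sdc2, 0.75 for Gpc6, 0.80 for Gpc4 and -0.88 for Sdc3. With the white adipocyte sum the signs were reversed, at -0.79, -0.78, -0.65 and 0.78 in the same order. The endothelial sum gave -0.70, -0.66, -0.70 and 0.59, so these values are not particular to smooth muscle. The points of each value share their libraries and their differences in tissue makeup, and the 6 smooth muscle markers summed to 7316 CPM in the mouse at the low end and to 37356 CPM in ischemic WT replicate 1. Gpc3 and Gpc4, which are neighbours on the chromosome, had an r of -0.34.

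The genes most like Sdc2 were Abat at 0.96, Chsy1 at 0.95 and Ikbip at 0.95, of which Chsy1 builds chondroitin sulfate chains. Those most like Gpc6 were Fstl1 at 0.96, Alcam at 0.95 and Plxdc2 at 0.95. For Gpc4 they were Tbc1d9 at 0.95 and Bdh1 and Olfr1033 at 0.91 each. For Sdc3 they were Pecr at 0.93, Cd300lg at 0.89 and Arap3 at 0.89, which became 0.83, 0.77 and 0.78 without normal WT replicate 2. For Sdc1 they were Gamt at 0.86, Cxx1a at 0.85 and Cgref1 at 0.83.

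Sdc4 was most like Pde4b at an r of 0.94, Nfil3 at 0.94 and Sash1 at 0.94. Pde4b encodes a phosphodiesterase that breaks down cyclic AMP, and Nfil3 encodes a transcription factor of the circadian clock and of immune cells. Pde4b ran from 27.7 to 31.1 CPM in normal KO mice and from 30.7 to 55.6 CPM in normal WT mice. After ischemia it ran from 74.8 to 209 CPM in WT and from 102 to 179 CPM in KO mice. All 3 genes were called together with Sdc4 in KO mice, where Pde4b rose by 2.24 (SE 0.29, FDR = 0.00754), Nfil3 by 3.05 (SE 0.51, FDR = 0.0246) and Sash1 by 1.61 (SE 0.20, FDR = 0.0063) on the log2 scale in edgeR. They were picked for their likeness to Sdc4 in the same mice, so their calls are no independent evidence.

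**Figure D5:**
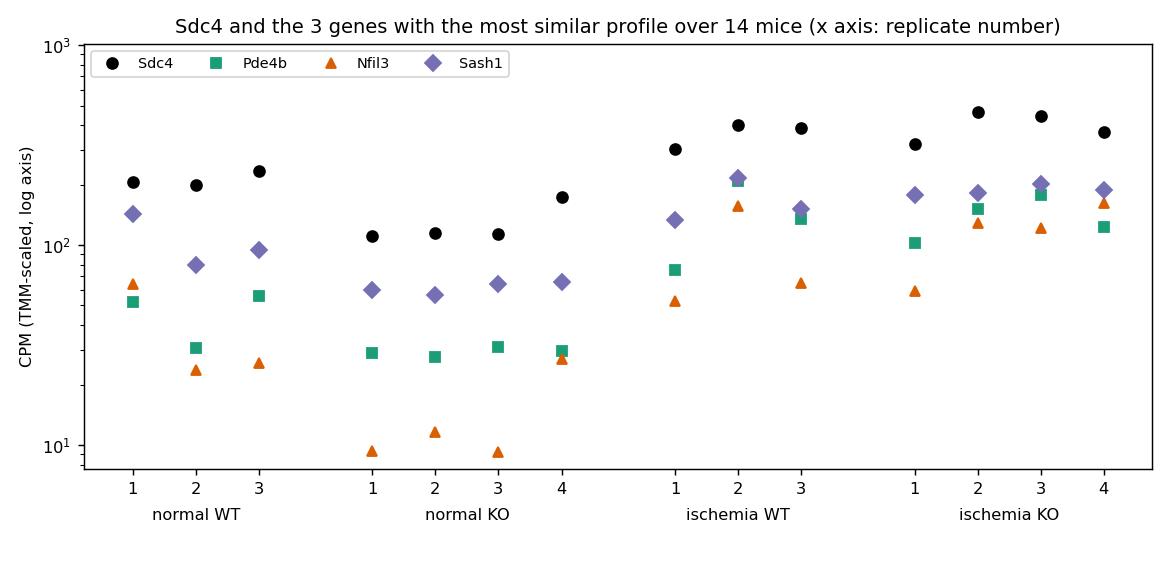
CPM (TMM-scaled, log axis) of Sdc4, Pde4b, Nfil3 and Sash1 in each mouse (x axis, replicate number within the group). The lowest mouse of each of the 4 genes is a normal KO mouse, and Pde4b lies between 27.7 and 31.1 CPM there against 74.8 CPM or more in every ischemic mouse.

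The machinery that builds, edits and uses heparan sulfate was followed in 9 lists of 75 genes, of which 65 passed the filter. In each of the 7 comparisons edgeR called 0 of the 65. At an unadjusted p under 0.05 the averaged ischemia effect gave 13 of them, 9 higher and 4 lower, which is 20% beside 18.1% of all genes tested. In the other comparisons the number ran from 2 to 8. For ischemia the shares were 10.8% in WT and 12.3% in KO mice, beside 9.57% and 13.2% of all genes. Between KO and WT mice they were 9.23% in normal conditions and 3.08% after ischemia, beside 5.25% and 6.48%. For the interaction and the averaged genotype they were 6.15% each, beside 4.32% and 7.77%. DESeq2 called Ext1, Pdgfb and Wnt5a in KO mice after ischemia, and Ext1, Hbegf and Pdgfb for the averaged effect, and 0 in the other 5 comparisons. These 3 of 65 are 4.62% in each, beside 3.43% and 4.92% of all genes tested, so the share of the lists was near that of all genes. The genes named in the next sentences were chosen after their values were seen.

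Ext1 encodes the polymerase of the heparan sulfate chain with Ext2 as its partner. It stood at 150.0 ± 83.6 CPM (SD, n = 3) in normal WT, 86.1 ± 16.3 (SD, n = 4) in normal KO, 232 ± 60.3 (SD, n = 3) in ischemic WT and 203 ± 54.3 CPM (SD, n = 4) in ischemic KO mice. The averaged effect of ischemia was 0.93 (SE 0.26, FDR = 0.106 in edgeR) for Ext1 and 0.30 (SE 0.12, FDR = 0.217 in edgeR) for Ext2. None of the 7 genes that build the linkage region or the 9 tested genes of sulfation and epimerization had an unadjusted p under 0.05 in this comparison. Nor did any of the 3 tested genes that edit the chains outside the cell. Among the genes with such a p were 1 of 5 for shedding, Mmp14, and 1 of 7 cytoplasmic partners of syndecans, Cask, both higher after ischemia. Of the 11 receptors, 2 had such a p, with Egfr higher and Nrp1 lower. So did 2 of 3 basement membrane proteoglycans, Col18a1 and Hspg2, both higher.

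Among 15 ligands that bind heparan sulfate, Hbegf, a ligand of the EGF receptor, was at 18.9 ± 14.2 and 13.9 ± 5.07 CPM in normal WT and KO mice and at 44.5 ± 8.27 and 28.1 ± 9.75 CPM after ischemia. Its averaged effect was 1.12 (SE 0.32, FDR = 0.108 in edgeR). Pdgfb, a ligand for pericytes and smooth muscle, went the other way, at 40.5 ± 34.3 and 41.1 ± 18.8 CPM in normal WT and KO mice and at 14.9 ± 4.19 and 13.3 ± 4.94 CPM after ischemia. Its averaged effect of -1.54 (SE 0.36) had the lowest FDR of the 65 genes, 0.0636 in edgeR. Wnt5a stood at 45.5 ± 37.1 CPM in normal KO mice and at 11.8 ± 3.00 CPM in ischemic KO mice, with -1.95 (SE 0.55, FDR = 0.153 in edgeR). Fgf1 and Lpl also had an unadjusted p under 0.05 for the averaged effect in edgeR. Fgf1 was at 56.0 ± 30.8 and 71.1 ± 17.0 CPM in normal WT and KO mice and at 95.3 ± 16.6 and 111 ± 21.9 CPM after ischemia. Lpl was lower after ischemia, at 424 ± 198 and 1060 ± 464 CPM in WT and KO mice against 1582 ± 1978 and 1364 ± 682 CPM in normal mice. Of the basement membrane proteoglycans, Hspg2, which encodes perlecan, was at 1566 ± 449 and 1336 ± 258 CPM in normal WT and KO mice and at 2537 ± 219 and 1638 ± 425 CPM after ischemia, with an averaged effect of 0.49 (SE 0.20, FDR = 0.216 in edgeR).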

How the data were processed

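Superior mesenteric arteries of 14 mice in 4 groups were sequenced. The authors deposited 1 table of whole-number read counts per gene symbol and mouse, without normalization and without pooling of replicates. The submitters' processing notes name HISAT2 2.0.4 and mm10. The counting program, its annotation and its use of strand are not given in the sources used here. Columns were matched to mice by name, and 0 columns of single samples were left unused.

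The analysis used edgeR 4.0.16 under R 4.3.3 (glmQLFit and glmQLFTest, TMM, filterByExpr by group) in 1 fit of all 14 mice, which left 17693 genes. P-values were adjusted by Benjamini-Hochberg over all of them, and calls were made at an FDR below 0.05 with a fold change above 1.5. The study used an RVM F-test with these limits. Differences between mice, with a biological coefficient of variation of 0.522, limit the precision of most genes more than depth does. Likeness is Pearson's r of log2 CPM with a prior count of 2. Lengths per kilobase are unions of exons in GENCODE M21 on GRCm38. Steps were tested on simulated counts.

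The members, lists and tests were chosen with earlier results of these data known. Named genes are the 8 members, Gpc2, Gpc5, Dnm1l, the genes of the pathway lists called by DESeq2 and the 3 genes most like each member. Ext2, Mmp14, Cask, Egfr, Nrp1, Col18a1, Hspg2, Fgf1 and Lpl were not called. They were named for an unadjusted p under 0.05 in edgeR for the averaged ischemia effect. Alternatives were DESeq2 1.42.0, other scalings and filters, fits of the groups compared, the replicate number as a block, and each mouse left out. Terms for high Xist and for 5 marker lists (brown adipocyte, fibroblast, smooth muscle, macrophage and erythroid) were added after seeing the data. The 18 pairs of mice of 1 group differed by far more than counting noise, with a chi-square per degree of freedom of at least 64.54. All libraries carry lane 8 in the labels except normal WT replicate 3, with lane 1.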

Additional observations from a re-analysis of the deposited data

Results flagged for a closer look

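Values of single mice were screened in the 16 combinations of a member with a group of 4 mice, and 2 mice stood apart from the rest of their group. Chance flags about 1 in 20 groups. Sdc4 in normal KO replicate 4 was at 174 CPM, while the others of its group lay between 111 and 115 CPM. Its gap to the nearest mouse was 0.93 of the range of the group, above the limit of Dixon's test for 4 mice. That mouse was second of the 14 in brown adipocyte markers, with a sum of 6191 CPM, and its 174 CPM was still below all normal WT mice.

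Gpc1 in ischemic KO replicate 4 was at 136 CPM, while the nearest mouse had 42.5 CPM, a gap of 0.95 of the range. The same mouse had the highest level of Hrc, at 158 CPM, and of Atp2a2, at 2759 CPM. The part of other tissue in either value was not tested.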

How the results depend on the processing

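Of 1481 log2 fold changes of members under alternatives, 1466 stayed within the spread, 14 moved and 1 became a call, that of Gpc1 averaged over genotypes with DESeq2. Sdc4 was called in KO mice in 28 of 28 fits, the reported one included, and for the averaged effect in 27 of 27. All these fits draw on the mice from whose levels Sdc4 was chosen. Counts over all genes depended more on the settings. DESeq2 called 41 and 18 genes between KO and WT mice in normal conditions and after ischemia, 108 and 606 for ischemia in WT and KO mice, 11 for the interaction, 870 for averaged ischemia and 88 for averaged genotype. Fits of only the groups compared called 0 in WT and 267 in KO mice after ischemia. With the replicate block, ischemia in WT mice gave 0 calls and averaged genotype 1, and no other call count moved by over 1.5 times. The correlation of deviations from the group means had a median of 0.12 between same-numbered mice of different groups, with 11 of 19 pairs over 0.1, and of -0.04 between mice of different numbers, with 9 of 54 over 0.1. Same-numbered mice were thus more alike, but not in every pair, normal WT replicate 2 was most like normal KO replicate 4 at 0.33, and no label ties the numbers to a shared day or litter, so the reported fit has no block. The Xist term gave 1 call for ischemia in WT mice and 85 for averaged ischemia. Brown adipocyte markers as a covariate gave 3 calls between KO and WT mice in normal conditions, 5 and 349 for ischemia in WT and KO mice, 518 for averaged ischemia and 6 for averaged genotype. Fibroblast and erythroid markers each gave 0 for ischemia in WT mice, smooth muscle markers gave 123 in KO mice, and macrophage and erythroid markers gave 72 and 90 for averaged ischemia. The cause of these shifts was not tested. Leaving out each mouse gave 0 to 29 calls between KO and WT mice in normal conditions, 0 to 0 after ischemia, 0 to 3 for ischemia in WT and 5 to 174 in KO mice, 0 to 0 for the interaction, 60 to 361 for averaged ischemia and 0 to 102 for averaged genotype. The counts of 29 and 102 arose without normal WT replicate 2. Without that mouse Sdc3 changed sign between normal KO and WT mice and for ischemia in WT mice. By the longest transcript, Gpc6 had a median of 49.2 CPM per kilobase. The 3 or 4 mice per group limit what can be called, and Sdc3, with 4 to 150 counts, is limited by depth as well.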
